A study of Mus musculus with 2 samples.

Results

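The genes of cholesterol synthesis and of its control by the sterol regulatory element binding proteins (SREBPs) were examined in mouse osteoblast cultures at day 12 and day 5 of differentiation. All probe sets annotated with 1 of 31 listed gene symbols were taken, whatever their signal. Of the 31 genes, 29 had a probe set (64 probe sets in all), among 18193 genes with a named probe set on the array. Acat2, the cytosolic thiolase gene, and Soat1, the gene of a cholesterol-esterifying enzyme, had no signal analysed here and enter only the description of promoters. Both samples were calvarial (skull roof) cells that are CD11b-negative, CD11b being a surface protein of myeloid cells, and the donors were newborn mice. Both were differentiated with ascorbic acid (50 µg/ml) and β-glycerophosphate (10 mM), for 12 days in one sample and for 5 days in the other, with no further treatment. No genotype or strain was given for either sample in the sources used here, nor whether animals were pooled. Each day was measured on 1 Affymetrix array, so no value has a replicate error or a p-value, and every difference compares these 2 arrays.

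Cholesterol is built from acetyl-CoA through mevalonate, isoprenoid diphosphates, squalene and lanosterol. When sterols are scarce, the escort protein SCAP carries the SREBPs out of the endoplasmic reticulum to be cut by proteases in the Golgi, and the freed factors switch on nearly every enzyme of the route. When sterols are plentiful, INSIG proteins hold SCAP back. In bone the prenyl diphosphates made midway are best known as the products blocked by nitrogen-containing bisphosphonates, drugs against bone loss.

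The deposited value is a probe set signal on a linear scale, which says nothing about one gene's level against another's. A gene was represented by its brightest probe set. It counted as measured if its signal reached the 60th percentile of at least 1 array, which was 44.8 at day 12 and 46.6 at day 5. Measured were 10479 genes in all and 28 of the 29 listed genes with a probe set, all 28 of them on both arrays. Of the osteoblast markers all 6 with a probe set were measured on both arrays and had a higher signal at day 12, with signals of 1138 (Sp7) to 10334 (Ibsp) at day 12 and 154 (Dmp1) to 6093 (Col1a1) at day 5. Chondrocyte markers were present as well, among them Col2a1 at 4439 at day 12 and 8405 at day 5, so these markers show osteoblast transcripts in the cultures and not that all cells were osteoblasts. Myeloid markers were present too, with 10 of 11 measured genes higher at day 12, 9 of them at least 2-fold. The summed signal over all 12 myeloid markers was 11149 at day 12 and 4625 at day 5. Lyz2 alone gave 5984 and 2649 of these sums. Itgam, the CD11b gene itself, had 35.4 at day 12 and 14.6 at day 5, below the measured level on both arrays. Chondrocyte markers summed to 12874 at day 12 and 24566 at day 5, with 7 of 8 lower. Of the adipocyte markers with a probe set, 3 of 4 measured were lower and 1, Lpl, was higher. Their sums were 1758 at day 12 and 1107 at day 5, of which Lpl gave 1560 and 739. All 6 endothelial markers lay below the measured level on both arrays. In cultures of mixed cells, fewer cells of a type and less RNA per cell cannot be told apart, and the part of these other cells in the values below was not tested.

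Enzymes of cholesterol synthesis mostly had a slightly lower signal at day 12, while most of the genes that control SREBPs did not. Of 19 measured enzymes 17 had a log2 ratio of day 12 over day 5 below 0, with a median of -0.33. Of the 17, 14 stayed below 0 under every alternative of processing that gave a value. Only the changes of normalisation could alter a sign here, and the changes of floor, pseudocount or probe set could not. Among all 10479 measured genes 56.4% lay below 0 and the median was -0.05. The differences were small. Of the 28 measured genes of the pathway, 1 had a day 12 signal lower by 2-fold or more, where 1.73% of all measured genes did, and 0 had one higher by 2-fold or more, where 3.56% did. At 1.5-fold 2 were lower and 2 higher, against 7.7% and 7.25% of all measured genes. At both thresholds the list lay near the background. The 9 measured genes of SREBP control and sterol transport had a median log2 ratio of 0.23, with 3 below 0 and 6 above, where 43.6% of all measured genes lay above 0.

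**Figure D1:**
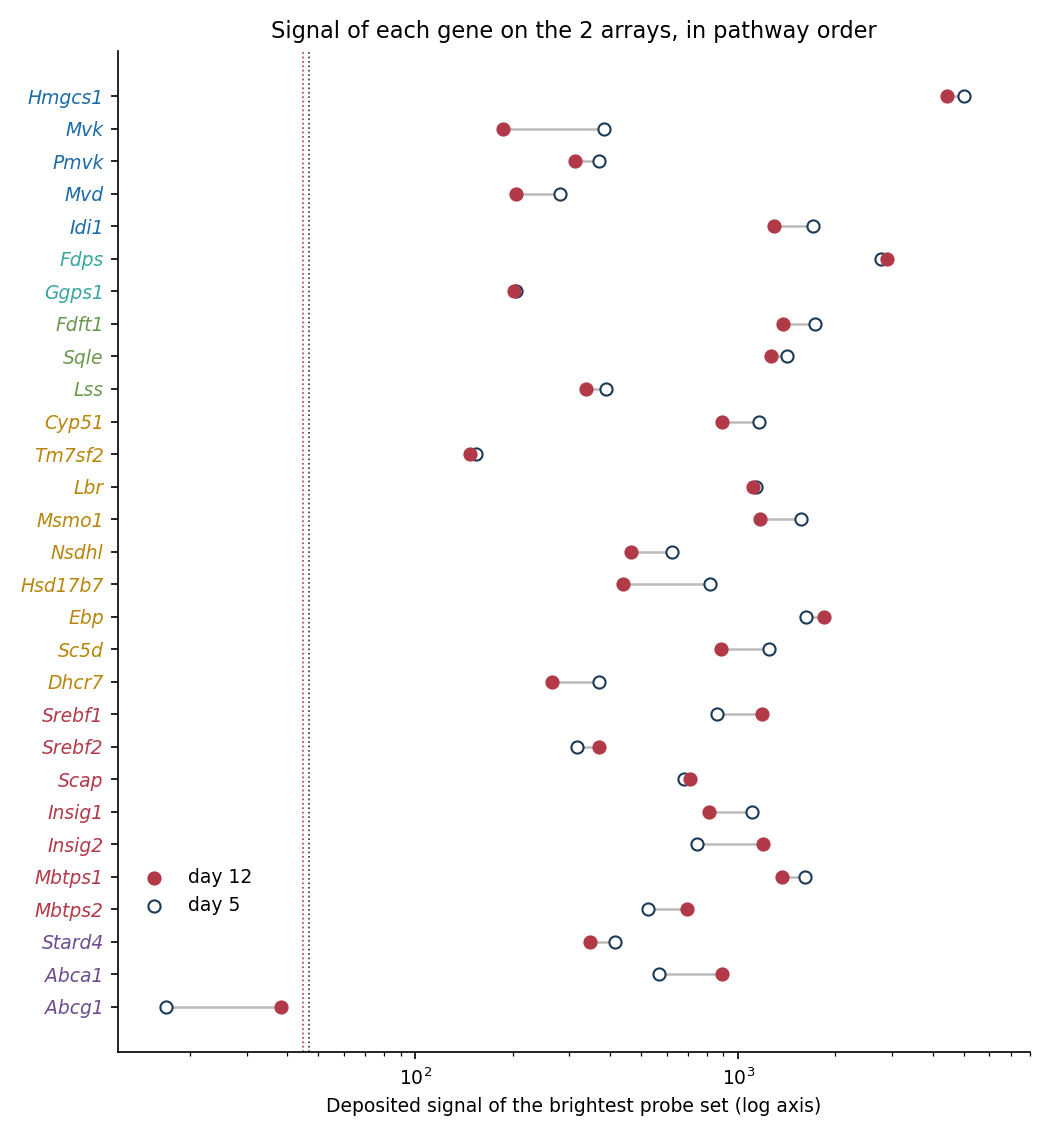
Deposited signal of the brightest probe set (log axis) for the 29 genes with a probe set, in pathway order, with filled points for day 12 and open points for day 5. Dotted lines mark the measured level of each array, 44.8 at day 12 and 46.6 at day 5, and Abcg1 lies below both. Each symbol's colour is its step, from the mevalonate steps at the top to sterol transport at the bottom.

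All 5 measured genes of the early mevalonate steps had a lower signal at day 12, with a median log2 ratio of -0.40. Hmgcs1, whose product condenses acetyl-CoA units into HMG-CoA, had a signal of 4424.5 at day 12, against 5004 at day 5 (log2 ratio -0.18). All 4 of its measured probe sets were lower, between -0.24 and -0.07. Mvk encodes mevalonate kinase, which adds the first phosphate to mevalonate. Its signal was 187 at day 12, against 383 at day 5, a 2.05-fold difference that was the only one past 2-fold in the pathway. The other Mvk probe set gave a log2 ratio of -0.68, so the 2-fold call rests on 1 of its 2 probe sets. It was also lost under median centring, where the log2 ratio was -0.98, and the direction was the same under every change of normalisation. Pmvk, which encodes the kinase of the next step, had 312 at day 12 and 369 at day 5 (log2 ratio -0.24). Mvd, whose product decarboxylates the chain to isopentenyl diphosphate, had 205 at day 12 and 280 at day 5 (log2 ratio -0.45). Idi1 encodes the isomerase that makes the allylic starter unit, and it had 1290 at day 12 and 1706 at day 5 (log2 ratio -0.40). Both probe sets of Mvd and both of Idi1 were lower, with the second Idi1 probe set at -0.62.

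The prenyl diphosphate synthases, which join isoprene units, were nearly level between the days. Fdps, the gene of farnesyl diphosphate synthase and the target of nitrogen-containing bisphosphonates, had a signal of 2881 at day 12, against 2762 at day 5 (log2 ratio 0.06). Ggps1, whose product makes the geranylgeranyl group that anchors small GTPases, had 202 at day 12 and 205 at day 5 (log2 ratio -0.02). Its 4 measured probe sets ranged from -0.37 to -0.02, so the brightest was the one nearest 0. The sign of Fdps and of Ggps1 differed between ways of processing the arrays.

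The 3 genes that commit farnesyl diphosphate to sterols all had a lower signal at day 12. Fdft1, the squalene synthase gene, had 1373 at day 12 and 1730 at day 5 (log2 ratio -0.33), and its second measured probe set gave -0.29. Sqle, which encodes the squalene epoxidase and uses molecular oxygen, had 1262 at day 12 and 1412 at day 5 (log2 ratio -0.16). Lss closes the rings to lanosterol, and had 338 at day 12 and 389 at day 5 (log2 ratio -0.20). The differences of Sqle and Lss were about as large as the usual disagreement between probe sets of 1 gene on these arrays, whose median over 4446 genes was 0.17, and that of Fdft1 was larger.

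Beyond lanosterol, 8 of 9 genes had a lower signal at day 12, with a median log2 ratio of -0.42. Hsd17b7, whose product reduces the sterol ketone while the methyl groups are removed, was the lowest of them at 439 at day 12 and 816 at day 5 (1.86-fold lower). Its 3 measured probe sets agreed closely, at -0.99, -0.89 and -0.81. Mvk and Hsd17b7 were lower, in rank among all measured genes, than the rest of the pathway, with 1.53% of measured genes below Mvk and 2.38% below Hsd17b7. Cyp51, the gene of the lanosterol demethylase, had 893 at day 12 and 1163 at day 5 (log2 ratio -0.38), and all 3 of its probe sets were lower. Msmo1, which encodes the methylsterol monooxygenase, had 1170 at day 12 and 1569 at day 5 (log2 ratio -0.42). Nsdhl, the gene of the dehydrogenase that then removes the carboxyl group, had 466 at day 12 and 623 at day 5 (log2 ratio -0.42). All of these genes act in the removal of the methyl groups of lanosterol.

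The closing reactions followed the same direction except at the isomerase. Ebp, whose product shifts a double bond in the second ring, had a signal of 1841 at day 12, against 1618 at day 5 (log2 ratio 0.19, from a single probe set). It was above 0 under every change of normalisation. The difference was about as large as the usual disagreement between probe sets of 1 gene, whose median was 0.17. Sc5d, the lathosterol oxidase gene, had 882 at day 12 and 1249 at day 5 (log2 ratio -0.50), with -0.74 in its second measured probe set. Dhcr7, which encodes the reductase that yields cholesterol, had 266 at day 12 and 371 at day 5 (log2 ratio -0.48). Sterol reduction at the step after Cyp51 is shared by the products of Tm7sf2 and Lbr, and Lbr is also a receptor for lamin B in the nuclear envelope. Tm7sf2 had 148 at day 12 and 154 at day 5 (log2 ratio -0.06), and Lbr had 1109 at day 12 and 1132 at day 5 (log2 ratio -0.03). Neither of them had a sign that held in all the ways of processing. Sqle, Cyp51, Msmo1 and Sc5d encode the 4 enzymes here that consume molecular oxygen, and their median log2 ratio was -0.40, against -0.24 for the other 15 measured enzymes. The 4 lay between -0.50 and -0.16, inside the range of the other 15, which was -1.04 to 0.19 with 13 below 0. The difference between these medians was not tested.

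**Figure D2:**
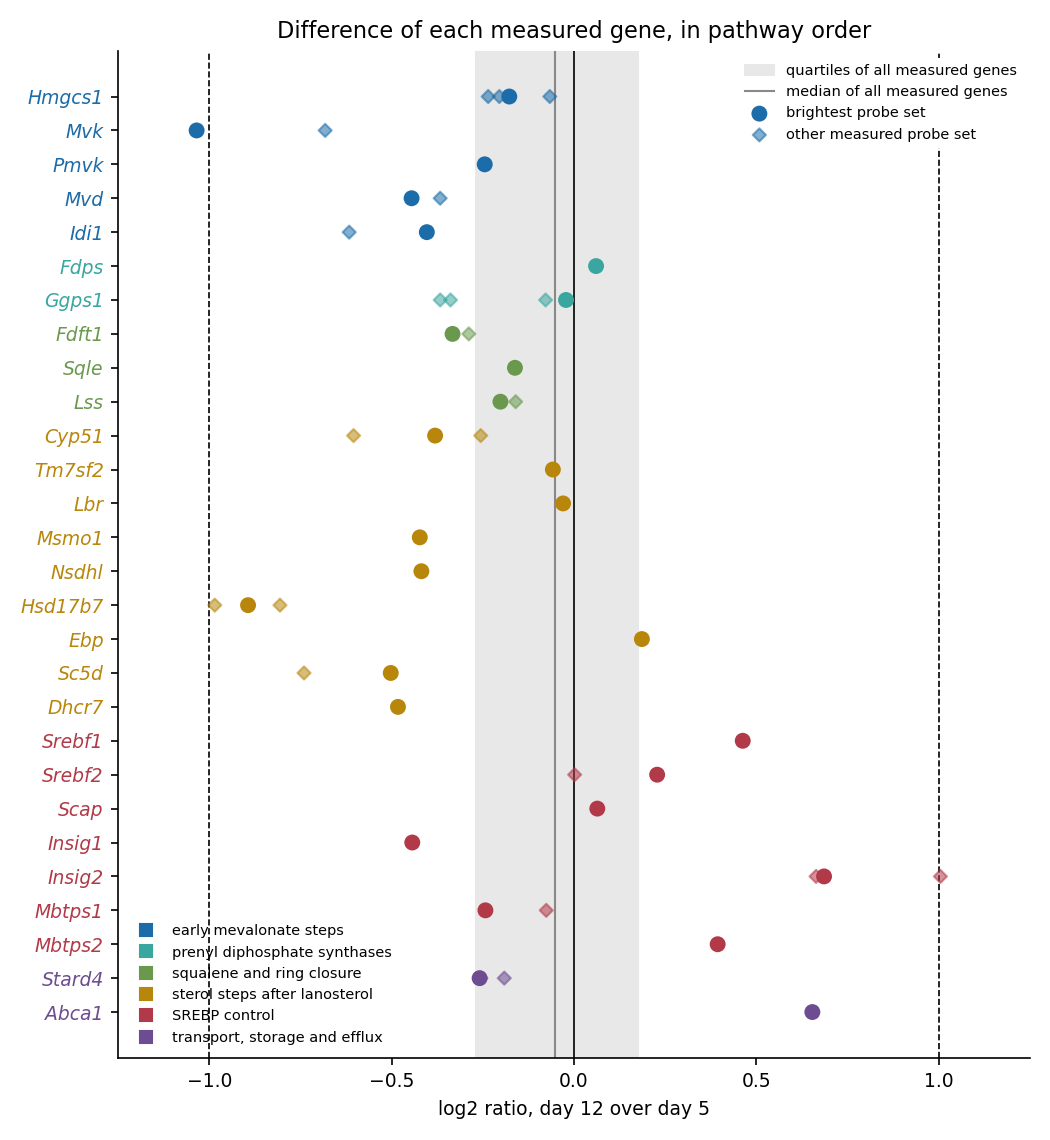
Log2 ratio of day 12 over day 5 (x axis) for the 28 measured genes in pathway order, with circles for the brightest probe set and diamonds for other measured probe sets. The grey band holds the middle quartiles of all 10479 measured genes, -0.27 to 0.17, and dashed lines mark 2-fold. Enzymes lie mostly left of 0, and Srebf1, Srebf2, Insig2, Mbtps2, Abca1 and the enzyme gene Ebp lie to the right of the band.

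Repeat probe sets of the same gene shared their direction, but not more closely their size. In the 14 genes with at least 2 measured probe sets, all measured probe sets had the same sign in each gene, where the second Srebf2 probe set lay barely above 0. Among 4446 genes of the array with at least 2, the 2 brightest had the same sign in 73.8%, against all 14 here. The log2 ratios of those 2 differed by a median of 0.17 over the 4446 genes and 0.19 over the 14. The sizes thus agreed no better here than elsewhere on the array. Of 35 measured probe sets of synthesis enzymes, 33 had a log2 ratio below 0, and the other 2 were the single measured probe sets of Fdps and Ebp. Probe sets of 1 gene share the RNA of 1 culture, its labelling and its array. This therefore covers probe error and leaves out differences between cultures, labellings and arrays.

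The promoters of these genes were searched for the element that SREBPs bind, a related E-box and motifs of general factors. The search was made because 17 of the 19 measured enzymes had a ratio below 0, and a link between motifs and ratios was not tested. SREBPs bind the sterol regulatory element next to the general factors NF-Y and Sp1. The 250 bases before the start were taken from RefSeq (build GRCm38.p6) for 26 of the 31 genes. Fdps, Fdft1, Sqle, Stard4 and Abcg1 had no window and were not searched. Both strands were searched for the core element TCACNCCAC, the related E-box TCACGTGA, the NF-Y motif CCAAT and the Sp1 motif GGGCGG, and no matches of different motifs overlapped. Of 17 synthesis genes, 16 (all but Acat2) held CCAAT in at least 1 promoter window, as did 5 of 9 control and transport genes and 39.5% of 17492 protein-coding genes in the table (33.8% of all 32851 windows). For GGGCGG the counts were 15 of 17, 7 of 9 and 45.8% (32.7% of all windows). The protein-coding genes were taken whether measured here or not, and a share among measured genes alone was not computed. TCACNCCAC was found in 1 gene, Hmgcs1, and in 1.2% of protein-coding genes (1.05% of all windows). TCACGTGA was found in none, and in 1.2% of protein-coding genes (0.785% of all windows). A match describes the letters of the window and does not show binding. The lack of an exact match does not show that a binding site is absent. Shown are the windows of Mvk and Hsd17b7, the genes with the lowest ratios, and of Insig2, the measured gene with the highest ratio (the outermost of its 3 windows), with CCAAT or its complement in capitals, and the window of Hmgcs1 with the core element in capitals.

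Mvk, chr5:114444019-114444268, plus strand: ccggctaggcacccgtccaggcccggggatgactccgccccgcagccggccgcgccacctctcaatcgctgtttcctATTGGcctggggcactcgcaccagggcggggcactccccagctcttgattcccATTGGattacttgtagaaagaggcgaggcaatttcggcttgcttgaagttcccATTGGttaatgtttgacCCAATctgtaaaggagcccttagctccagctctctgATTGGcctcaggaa
Hsd17b7, chr1:169969206-169969455, minus strand: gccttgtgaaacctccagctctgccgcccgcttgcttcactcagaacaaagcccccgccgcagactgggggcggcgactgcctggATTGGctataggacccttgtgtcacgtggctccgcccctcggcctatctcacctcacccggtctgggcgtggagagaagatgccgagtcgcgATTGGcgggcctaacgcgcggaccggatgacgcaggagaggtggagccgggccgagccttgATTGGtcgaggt
Insig2, chr1:121332590-121332839, minus strand: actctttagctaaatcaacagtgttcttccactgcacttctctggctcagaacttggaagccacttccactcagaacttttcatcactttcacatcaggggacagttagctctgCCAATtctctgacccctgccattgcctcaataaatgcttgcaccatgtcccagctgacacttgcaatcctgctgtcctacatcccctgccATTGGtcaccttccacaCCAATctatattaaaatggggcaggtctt
Hmgcs1, chr13:119690101-119690350, plus strand: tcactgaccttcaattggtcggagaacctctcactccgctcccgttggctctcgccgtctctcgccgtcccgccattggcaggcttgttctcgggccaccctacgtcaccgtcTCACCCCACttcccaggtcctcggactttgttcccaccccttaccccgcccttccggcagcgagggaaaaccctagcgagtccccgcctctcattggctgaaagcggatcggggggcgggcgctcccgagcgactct

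The Mvk window held 5 NF-Y matches, more than any other window of the listed genes, and the Hsd17b7 window held 3. The outermost Insig2 window also held 3, and its other 2 windows held none. Whether the number of matches goes with the ratio was not tested.

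**Figure D3:**
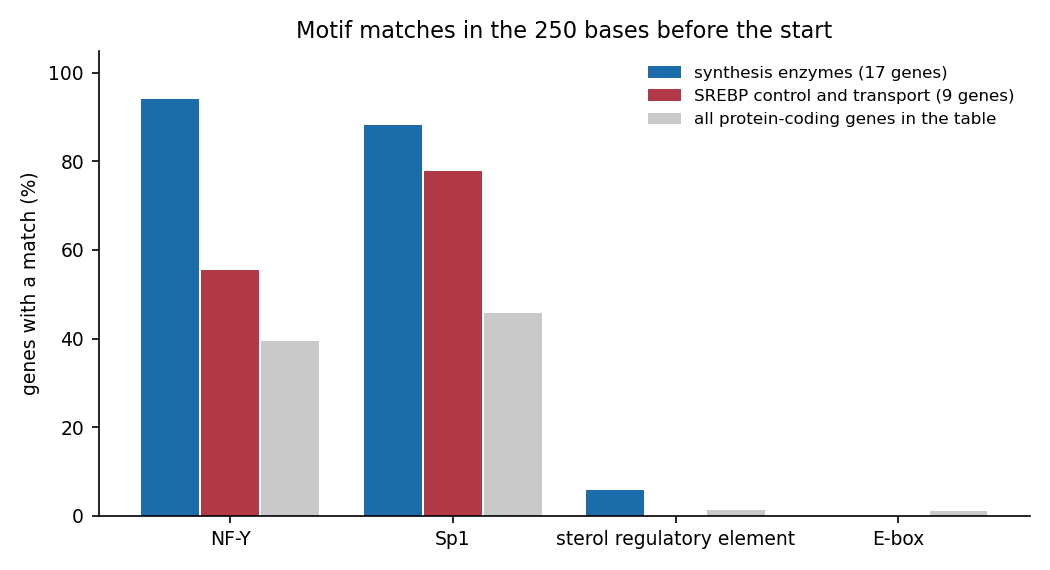
Share of genes (y axis, percent) with at least 1 match of each motif, on either strand, in the 250 bases before the start, for 17 synthesis genes, 9 control and transport genes and all 17492 protein-coding genes. The NF-Y bar stands at 94.1% for synthesis genes, 55.6% for control and transport genes and 39.5% for protein-coding genes.

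Neither SREBP gene had a lower signal at day 12, unlike most of the enzymes they drive. Srebf1 was higher, and the probe sets of Srebf2 ranged from level to higher. Srebf1, whose products favour fatty acid genes, had 1185 at day 12 and 860 at day 5 (log2 ratio 0.46, from a single probe set). Srebf2, whose product favours cholesterol genes, had 370 at day 12 and 316 at day 5 (log2 ratio 0.23), but its second measured probe set gave 0.00. SREBPs are activated by cleavage, which a transcript signal does not measure. Scap, the escort gene, had 707 at day 12 and 677 at day 5 (log2 ratio 0.06).

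The INSIG genes went opposite ways. Insig2 had the highest log2 ratio of the pathway, with a signal of 1194 at day 12, against 743 at day 5 (1.61-fold higher). Its other probe sets gave log2 ratios of 1.01 and 0.66, so 1 of 3 was past 2-fold. Insig1 had 814 at day 12 and 1107 at day 5 (log2 ratio -0.44), from a single probe set. Both proteins retain SCAP, but Insig1 is itself a target of SREBPs whereas Insig2 does not depend on them. The protease genes also split. Mbtps1, the gene of the protease that makes the first cut, had 1365 at day 12 and 1615 at day 5 (log2 ratio -0.24). Its second measured probe set gave -0.08. Mbtps2, whose product makes the cut within the membrane, had 692 at day 12 and 527 at day 5 (log2 ratio 0.39, from a single probe set). The signs of all 7 control genes held under every change of normalisation.

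Genes that move sterols were fewer and also split. Stard4, a sterol carrier gene induced by SREBPs, had 347 at day 12 and 415 at day 5 (log2 ratio -0.26), and all 3 of its probe sets were lower. Abca1, the exporter that passes cholesterol to apolipoproteins and is induced by oxysterol receptors (LXRs), had 892 at day 12 and 567 at day 5 (1.57-fold higher). Only 1 of its 3 probe sets was measured. Abcg1, a partner in export, had 38.4 at day 12 and 16.9 at day 5, below the measured level on both arrays, so no ratio is given. Macrophages express Abca1 and Abcg1, and the myeloid markers were higher at day 12 by a median log2 ratio of 1.18. Their part in the Abca1 signal was not tested.

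**Figure D4:**
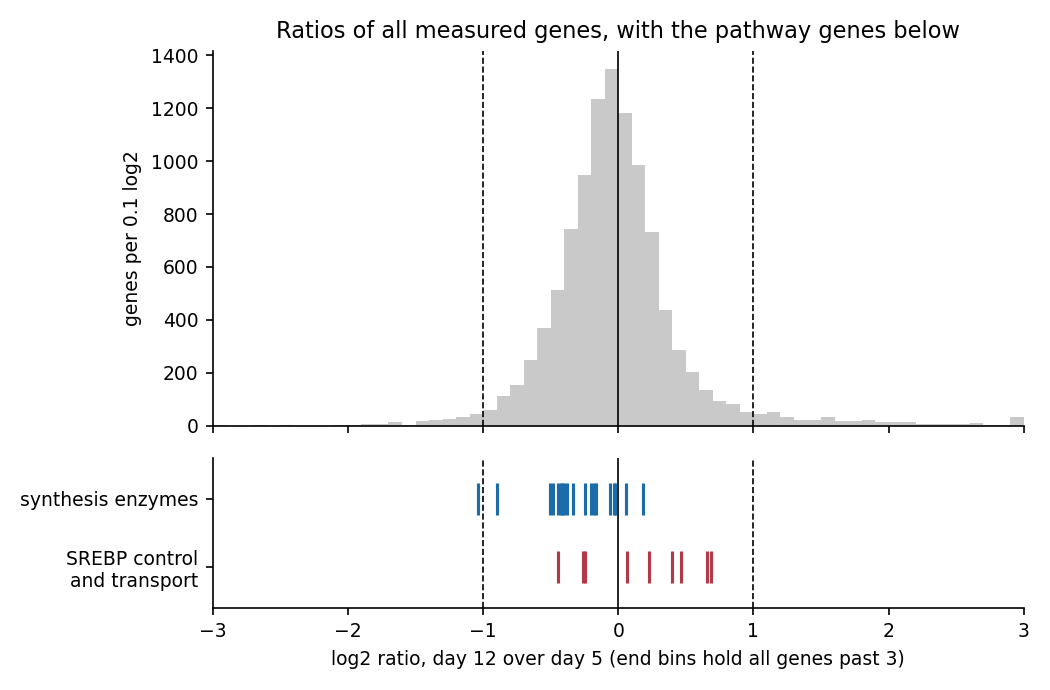
Distribution of log2 ratios of day 12 over day 5 for all 10479 measured genes (grey bars, genes per bin), with 1 tick below for each of 19 synthesis enzymes and 9 control and transport genes. Dashed lines mark 2-fold. The enzymes sit left of centre within the body of the distribution, with Mvk at -1.04 the lowest.

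Lists of 5 related groups were described in the same way, and none had a median far from that of all genes. The list of SREBP-responsive genes, mainly of fatty acid synthesis but with Aacs, Tmem97 and Rnf145 as well, was mixed. Of 17 measured 10 lay below 0, with a median of -0.03 and none past 2-fold. Elovl6, a fatty acid elongase gene, had 499 at day 12 and 871 at day 5 (log2 ratio -0.80 by the brightest of 2 probe sets), and Aacs, which feeds ketone carbon into sterols, had 307 at day 12 and 477 at day 5 (log2 ratio -0.64). At the other end, Me1, a source of NADPH, had 2099 at day 12 and 1387 at day 5 (log2 ratio 0.60), and the desaturase gene Scd1 had 3009 at day 12 and 2176 at day 5 (log2 ratio 0.47). The synthesis enzymes of cholesterol had a lower median than this list, but the difference between the lists was not tested.

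Among oxysterol genes and LXR targets, 1 of 8 measured was 2-fold or more higher and 1 was 2-fold or more lower, with a median of 0.03. Pltp, the phospholipid transfer protein gene and an LXR target, had 1132 at day 12 and 565 at day 5 (2.01-fold higher), but its second probe set gave a log2 ratio of 0.57. Cyp7b1, which encodes an enzyme that breaks down oxysterols, had 127 at day 12 and 294 at day 5 (2.32-fold lower), with -1.19 in its second probe set. Ch25h, an oxysterol-producing enzyme gene, had a log2 ratio of 0.32, and Rxra, the gene of the receptor that pairs with LXRs, had -0.34 with 0.08 in its other probe set. The LXR gene Nr1h3 lay below the measured level on both arrays, and the other LXR gene, Nr1h2, had no signal analysed here.

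Genes that use prenyl groups had 9 of 12 measured below 0, a median of -0.08 and none past 2-fold. Rabggtb, a subunit of the enzyme that prenylates Rab proteins, had the highest log2 ratio of that list at 0.64 and Fntb, a farnesyltransferase subunit gene, followed at 0.33. Nus1, needed for dolichol synthesis, and Icmt, which methylates prenylated proteins, were lowest at -0.34 and -0.24, where the 6 measured probe sets of Nus1 ranged from -0.71 to 0.27. In the list of sterol-regulated degradation at the endoplasmic reticulum, 5 of 8 measured genes were below 0 and the median was -0.04. The erlin genes Erlin1 and Erlin2 stood lowest at -0.52 and -0.43, and Ube2g2 and Vcp highest at 0.27 and 0.13, each with another probe set of the opposite sign. Sterol transfer and ester turnover genes had 7 of 15 measured below 0 and a median of 0.02, with none past 2-fold. Osbpl8 and Gramd1b, which encode lipid transfer proteins at membrane contacts, were highest at 0.75 and 0.64. Cav1, the caveolin gene, and Stard3, of a lysosomal sterol carrier, were lowest at -0.65 and -0.40.

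**Figure D5:**
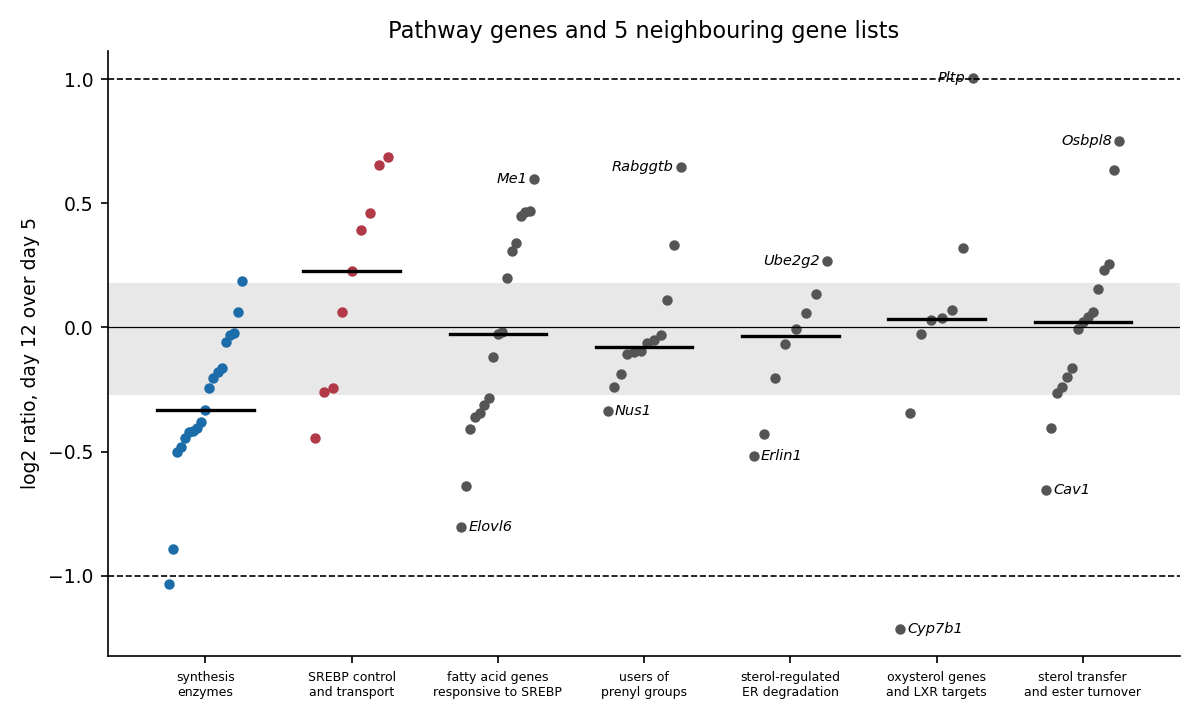
Log2 ratio of day 12 over day 5 (y axis) for each measured gene of the synthesis enzymes, the control and transport genes and 5 related lists, with bars at the medians and the grey band over the middle quartiles of all measured genes. The median of the synthesis enzymes, -0.33, lies below the band, that of control and transport genes, 0.23, lies above it, and the other 5 lie inside it.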

How the data were processed

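Biotin-labelled RNA of 1 culture at day 12 and 1 at day 5 was put on 1 Affymetrix array per culture (per the labels' protocols). The authors deposited a linear signal intensity for each of 45101 probe sets. The tools GCOS 1.4 and MAS5 are named, without settings, in the submitters' processing notes. The mean after trimming 2% at each end was 200.0 on both arrays, so their centres were set equal and total RNA per cell is not measured.

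Of 45037 probe sets other than controls, 34945 had 1 gene symbol in the platform annotation, 34741 of them updated by Entrez number in a table of GRCm38.p6. Genes were named only from these. The 60th percentile of an array replaced any lower signal on it, and the log2 ratio was then taken as day 12 over day 5. No test is possible with 1 array per group, so a threshold of 2-fold was used. All listed genes were named, and in related lists those past 2-fold and the extremes. The members and lists were chosen with earlier results of these data known. The number of arrays limits the precision. The code recovered planted ratios in simulated data. Python 3.11.15, numpy 2.4.6, pandas 2.3.3 and statsmodels 0.14.6 were used.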

Additional observations from a re-analysis of the deposited data

How the results depend on the processing

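Results were recomputed under 8 alternatives of normalisation, floor and probe set choice, and at thresholds of 1.5-fold and 3-fold. The number of listed genes at least 2-fold higher at day 12 was 0 under all 8, and 2 at 1.5-fold. The number at least 2-fold lower was 1, and became 0 under median centring, quantile normalisation, loess on signal, a pseudocount of 32, the median over probe sets and the 3-fold threshold, and 2 at 1.5-fold. That gene was Mvk, whose log2 ratio of -1.04 as deposited lay only just past the 2-fold threshold of -1. Its log2 ratios were -0.98, -0.99, -0.93, -0.92 and -0.86 under the first 5 of these. The cause of its lower signal was not tested. Over all measured genes the count of higher genes was 373 as deposited, 223 with the floor at the 75th percentile, 760 at 1.5-fold and 175 at 3-fold. The count of lower genes was 181 as deposited, 297 and 74 with the floor at the 50th and 75th percentile, 807 at 1.5-fold and 36 at 3-fold.

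The median log2 ratio of the listed genes ranged from -0.24 to -0.16, and 24 of 28 genes kept their sign under every alternative that gave a value (Pmvk, Msmo1 and Srebf1 had none without probe sets of shared sequence). The 4 that did not were Fdps, Ggps1, Tm7sf2 and Lbr. They changed sign only under median centring, quantile normalisation or loess on signal. The other alternatives could not change a sign here. All 28 genes lay above the floor on both arrays, and repeat probe sets of a gene shared 1 sign. Of the 19 enzymes, 17 lay below 0 as deposited, 15 under median centring, where 49.5% of all genes did, and 14 after loess. No paired analysis was possible because each day had 1 array.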

Other observations

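In the RefSeq table of GRCm38.p6, 5 of the 26 listed genes with a promoter window start head to head with a nearby gene on the other strand. These pairs were looked up after the values of the listed genes were seen. Mvk shares such a region with Mmab, an enzyme gene of vitamin B12 use, whose start lies 242 bases off. Mmab had a signal of 156 at day 12, against 164 at day 5 (log2 ratio -0.08), beside -1.04 for Mvk. Hsd17b7 lies 204 bases from 3110045C21Rik, which had 43.99 at day 12 and 57.03 at day 5, close to the measured level (log2 ratio -0.35, a bound). Nsdhl lies 177 bases from Cetn2, a centrin gene, which had 1142 at day 12 and 1242 at day 5 (log2 ratio -0.12, beside -0.42 for Nsdhl). Nadsyn1, next to Dhcr7, had 50.8 at day 12 and 48.3 at day 5, also close to the measured level (log2 ratio 0.07). Arid4b, next to Ggps1, had a log2 ratio of 0.07. The share of all genes in such pairs was not computed, and no share over other head-to-head pairs was either.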
